A study of Mus musculus with 12 samples.

Results

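The genes described here encode the ubiquitin-conjugating E2 enzymes of the mouse. They were taken as all symbols that open with Ube2 and a letter, leaving out Ube2l6, which is also interferon-induced, and pseudogenes, and asking for at least 30 reads over the 12 libraries. Of 41 such symbols among the 37991 genes counted, 30 met this rule, and all 30 passed the filter on low counts that preceded the tests. Besides Ube2l6, 3 pseudogenes (Ube2d-ps, Ube2d4 and Ube2nl) and 7 genes under the minimum were left out. The latter were Ube2e2, with 6 reads in all, and Ube2d2b, Ube2dnl1, Ube2dnl2, Ube2ql1, Ube2u and Ube2uos, with 0 reads. One member, Ube2cbp, carries the prefix but encodes an E3 ligase that binds UBE2C, not an E2. It is kept here because the rule is by name.

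Ubiquitin reaches a protein through a cascade. An E1 enzyme activates it, an E2 takes it on a cysteine of its conserved core domain, and an E3 ligase brings the loaded E2 to the substrate. The E2 often sets how many ubiquitins are added and how they are linked, and a few E2s carry a relative of ubiquitin, such as NEDD8, in its place. Maturing red cells use this machinery to remodel their proteome while most other mRNAs are lost, and UBE2H and UBE2O are E2s known for high levels in that late stage.

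The cells were MEL cells, a mouse erythroleukemia line that resembles red cell precursors, and all 12 libraries came from induced cells, that is, cells prompted to mature. Control cells carried the treatment label control, which names no knockdown or construct. The knockdown group (KD) had reduced LDB1, the adaptor that links GATA1, TAL1 and LMO2 into 1 transcription complex. The delta45 group consisted of KD cells with an LDB1 construct named delta 4/5, and the FL group of KD cells with a full-length construct, so both still carried the knockdown. Each group had 3 libraries, numbered in their titles. The inducing agent, the means of knockdown, the promoters of the constructs and whether a line was 1 clone were found in no source used here. The labels do not say whether the 3 libraries of a group were grown separately. The p-values therefore measure the spread among these libraries, and that spread may be technical.

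Levels below are CPM, read counts scaled to a common library size by edgeR's TMM method, in the order of replicates 1, 2 and 3. CPM is not divided by gene length, so it compares 1 gene across libraries and not genes with each other. Changes are log2 differences ± SE from edgeR's quasi-likelihood test over all 12 libraries, and a gene was called where its Benjamini-Hochberg adjusted p over 12837 genes was under 0.05. Gene reads numbered 8783970 to 20464959 a library. Ldb1 itself stood at 637.1 to 772.6 CPM in control and 97.1 to 159.2 in KD, while delta45 had 750.4 to 781.2 and FL 3210 to 3696, so the 2 constructs were compared at unequal Ldb1 mRNA. Erythroid markers were present in every library, their sum over 12 genes being 33220 to 40340 CPM in FL, 12200 to 13080 in control, 5195 to 5385 in delta45 and 3000 to 5537 in KD. Markers of myeloid cells (4.077 to 80.26 CPM summed over 9 genes), lymphoid cells (5.559 to 45.36 over 8) and mast cells (0 to 3.056 over 6) were scarce in every library. The summed megakaryocyte markers, 8 genes, were at 136.8 to 157.7 CPM in delta45 and 2636 to 2776 in FL, with 760.8 to 927.2 in the others. The KD libraries stood apart from each other in 10 interferon response genes, whose sum was 309, 4713 and 12130 CPM, against 195.2 to 1498 elsewhere. Ube2l6 was at 93.21, 440.7 and 934.9 CPM in KD.

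The 30 genes together took 0.2939 to 0.303% of gene reads in FL, 0.2444 to 0.2857% in control, 0.2484 to 0.2755% in KD and 0.2564 to 0.2603% in delta45. Their summed level was 3342 to 3457 CPM in the FL libraries and 2301 to 2801 CPM in the other 9. FL thus stood clear of the other groups, which overlapped each other. The gap was narrower in the shares of gene reads, which are not TMM-scaled. Within the summed level, Ube2o and Ube2h had means of 553.6 and 314.1 CPM in FL, against 157.2 and 109.6 in control. FL was the group with the highest mean for 14 of the 30, control for 8, delta45 for 6 and KD for 2. Control was also the lowest group for 10, delta45 for 8, KD for 7 and FL for 5. These counts rest on the TMM scaling. They were not made over all genes, so whether they are particular to the 30 was not tested. In these bulk libraries, fewer cells of a type and less RNA per cell cannot be told apart, and this holds for every level given here.

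**Figure D1:**
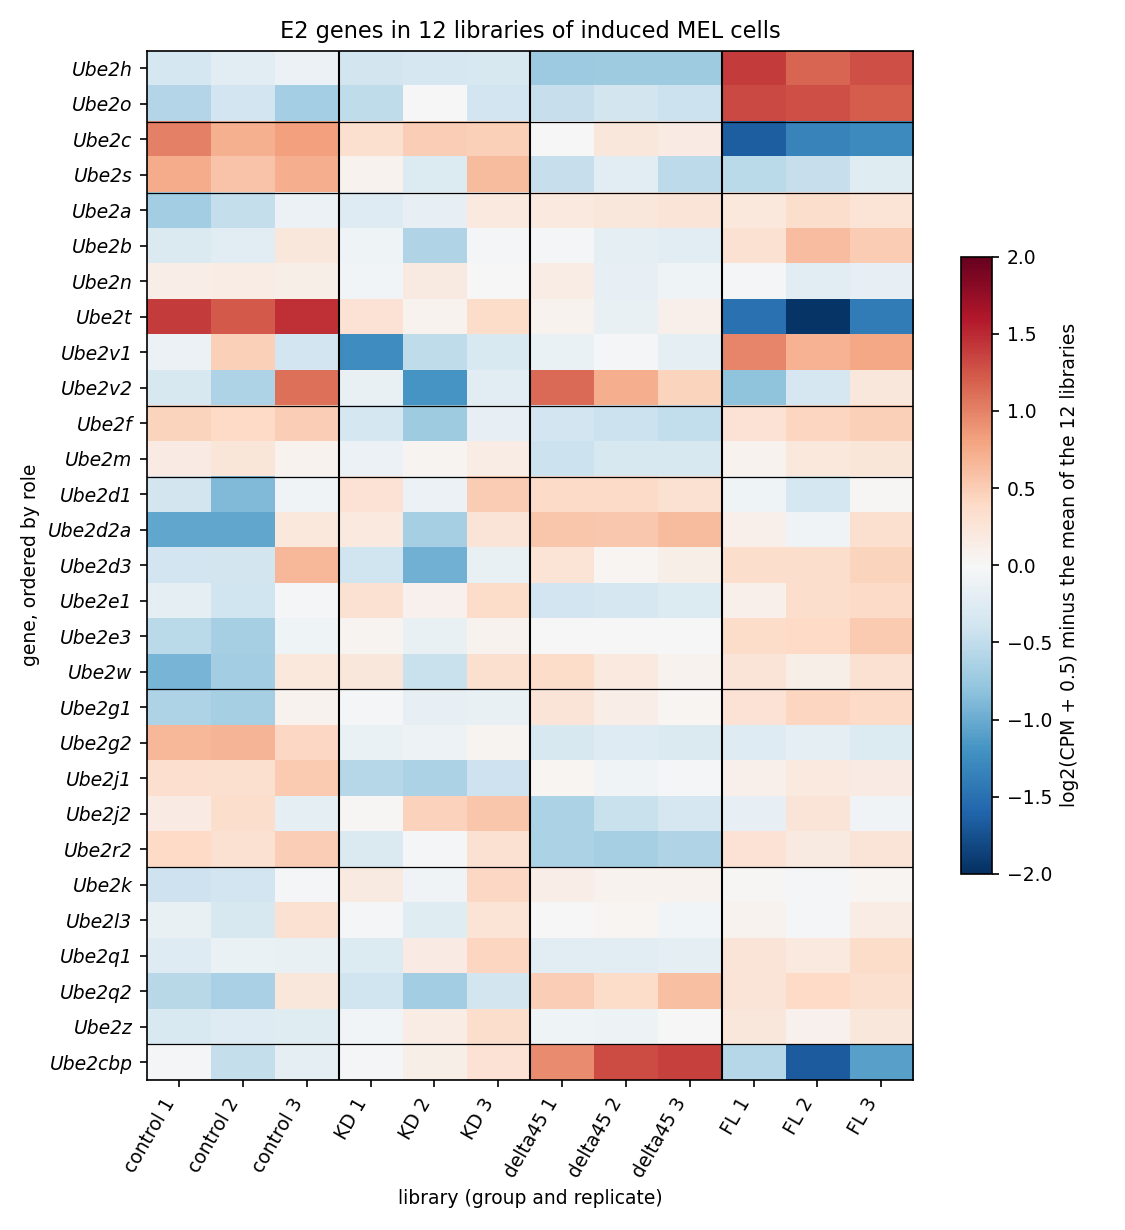
Each row is 1 of 29 of the genes, grouped by role, and each column 1 of the 12 libraries; colour gives log2(CPM + 0.5) minus the gene's mean over the 12 libraries. Ube2h and Ube2o are red in the 3 FL libraries, Ube2c and Ube2t are blue there, and control replicate 3 differs from the other controls for genes such as Ube2d3 (270.5 against 130.4 and 131.6 CPM).

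The spread within a group limited what could be seen. The coefficient of variation over the 30 genes had a median of 14% in control and 17.8% in KD, against 4.2% in delta45 and 6.5% in FL. In control it was over 20% for 12 genes, in KD for 11, in FL for 3 and in delta45 for 1. Control replicate 3 held the highest control value for 19 of the 30 genes and exceeded both others by over 1.5 times for Ube2d2a, Ube2d3, Ube2g1, Ube2q2, Ube2v2 and Ube2w. KD replicate 3 held the highest KD value for 24. Calls lost without one of these libraries are given below.

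KD against control asked what less LDB1 changed. Of the 30 genes 5 were called higher (16.7%) and 6 lower (20%), where 25.6% and 24.1% of all genes tested were called higher and lower. The genes called lower were Ube2t, Ube2j1, Ube2f, Ube2g2, Ube2c and Ube2r2, and those called higher were Ube2d1, Ube2e1, Ube2e3, Ube2k and Ube2z. The median change was -0.11 over the 30 and 0.02 over all genes. The higher count was the unsteadiest in this comparison: it became 3 without control replicate 1, 1 without control replicate 2, 9 without control replicate 3, 8 without KD replicate 1 and 3 without KD replicate 3.

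FL and delta45 were each set against KD to see what the full-length and the delta 4/5 construct changed in knockdown cells. In FL against KD 11 were called higher (36.7%) and 4 lower (13.3%), beside 26.3% higher and 31.7% lower among all genes. In delta45 against KD 5 were called higher (16.7%) and 6 lower (20%), beside 29.2% and 30.7%; the higher count was 9 without control replicate 3 and 8 without KD replicate 3. These comparisons share the KD libraries. The median changes were 0.16 and -0.03 over the 30, and -0.06 and -0.01 over all genes.

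FL against delta45 compared the 2 constructs directly. Here 11 genes were called higher in FL (36.7%) and 3 lower (10%), beside 25.8% and 27% of all genes, and the lower count was 5 without control replicate 2 or KD replicate 3. The median change was 0.13 over the 30 and -0.01 over all genes. Against control, FL had 12 higher (40%) and 6 lower (20%), beside 28.1% and 31.2%. In that comparison the calls of Ube2j1 (-0.24), Ube2v1 (0.9) and Ube2cbp (-1.08) were lost without control replicate 3. There edgeR's adjusted p was 0.325, 0.0813 and 0.0518. The call of Ube2j1 was lost under 12 of 19 alternatives: with no low-count filter and without any 1 library except KD replicate 3. That of Ube2v1 was also lost with library totals only and without control replicate 1 or FL replicate 1 or 3. For Ube2cbp it was also lost without control replicate 1 or FL replicate 2 or 3. Delta45 against control had 9 higher (30%) and 10 lower (33.3%), beside 31.9% and 32.5%.

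The balance of higher and lower calls in FL depended on the scaling. With library totals in place of TMM it was 8 higher and 10 lower for FL against KD, 7 and 8 for FL against delta45, and 6 and 8 for FL against control. That scaling moved the median of all genes by -0.27, -0.27 and -0.22. The members' counts under it therefore cannot be set beside the shares of all genes given above, which are those under TMM. The members' medians became -0.11, -0.15 and 0.08. A change of scaling shifts all genes of a comparison nearly alike, so it cannot test the gap between the members' median and that of all genes. The sign of the members' own median in the first 2 comparisons did not hold. The changes of Ube2h, Ube2o, Ube2c and Ube2t described next were called in FL against KD, delta45 and control under every scaling.

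**Figure D2:**
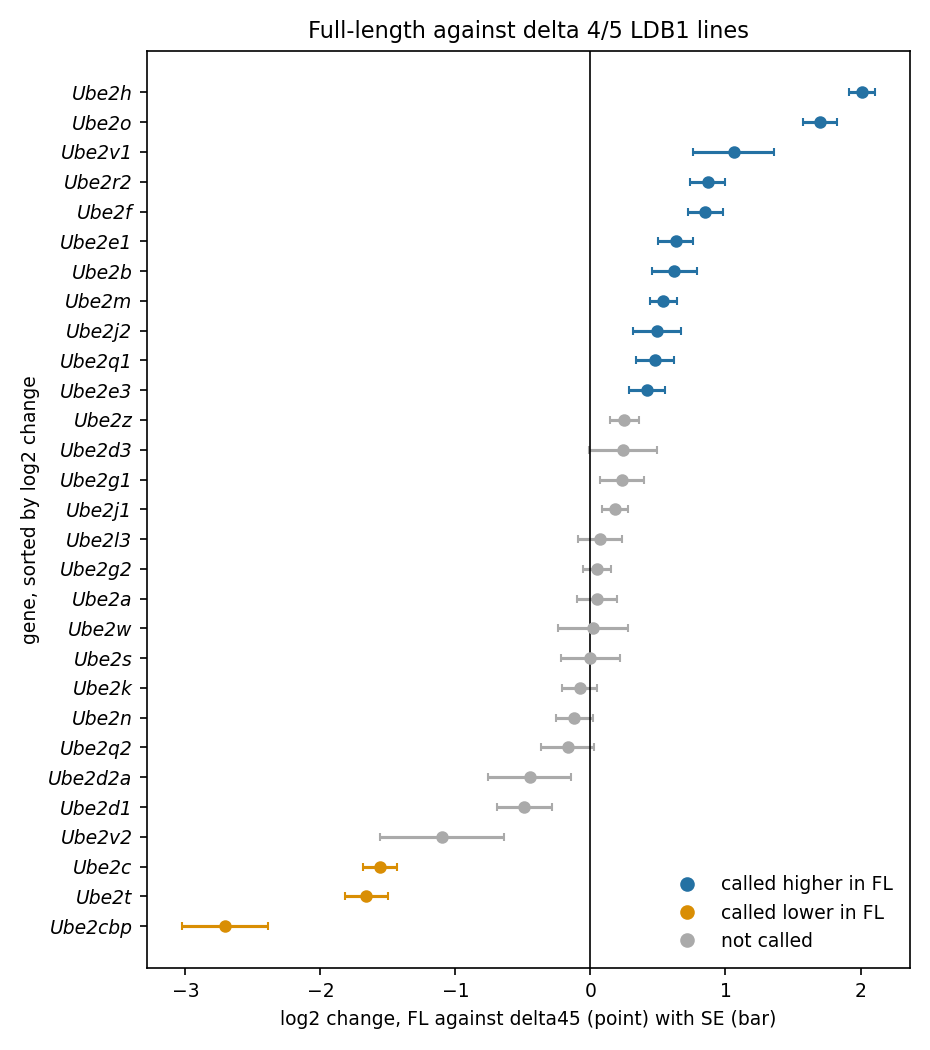
The 29 genes drawn, sorted by log2 change between FL and delta45 (points) with SE (bars), coloured by call. Ube2h at 2.01 and Ube2o at 1.7 lie at the top, and Ube2t at -1.66 and Ube2cbp at -2.71 at the bottom; 15 of those drawn were not called.

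Ube2h and Ube2o, the E2s linked to red cell maturation, had the largest rises in FL against delta45 among the 30 genes. UBE2H is the E2 of the CTLH ligase, a large complex that marks proteins for removal late in red cell maturation. UBE2O combines E2 and E3 activity in 1 protein and removes ribosomal proteins and unpaired globin chains in reticulocytes. Both rose in FL, 3.12-fold and 2.95-fold against KD, and neither was called in KD against control.

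Ube2h (ENSMUSG00000039159) was at 99.98, 110.7 and 118.1 CPM in control. The KD libraries held 98.72, 101 and 102.7 CPM, the delta45 libraries 77.1, 78.08 and 78.11, and the FL libraries 337.7, 289.2 and 315.4. Every FL library lay above the other 9 and every delta45 library below them. FL was 3.12-fold above KD (log2 1.64 ± 0.097, edgeR adjusted p = 3.34e-08) and 4.04-fold above delta45 (2.01 ± 0.098, edgeR adjusted p = 4.27e-09). Delta45 was 1.3-fold below KD (-0.37 ± 0.0954, edgeR adjusted p = 0.00449). The 2 constructs thus stood on opposite sides of KD. KD against control gave -0.12 ± 0.0953 (edgeR adjusted p = 0.306), with libraries that overlapped.

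Ube2o (ENSMUSG00000020802) was at 153, 175 and 143.5 CPM in control. KD held 160.7, 227.3 and 175.6 CPM, delta45 165.8, 176.9 and 170, and FL 570.2, 558.1 and 532.5. The first 3 groups overlapped and FL stood clear of all of them. Its change was 1.56 ± 0.129 against KD (2.95-fold, edgeR adjusted p = 5.78e-07), 1.7 ± 0.129 against delta45 and 1.82 ± 0.13 against control. For delta45 against KD it was -0.14 ± 0.126 (edgeR adjusted p = 0.366), so no shift was called with the delta 4/5 construct.

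The summed erythroid markers, given above, were highest in the same 3 FL libraries, and 11 of their 12 genes were called higher in FL against delta45, beside 25.8% of all genes. Their part in the levels of Ube2h and Ube2o was not tested. The erythroid sum of delta45 lay far below that of control. Ube2h was called lower in delta45 than in control, with log2 changes of -0.56 to -0.42 over 19 alternatives. Ube2o in those 2 groups was not called different (log2 0.12 ± 0.126, edgeR adjusted p = 0.417). Of the 50-base windows of the longest coding Ube2h transcript, 46.3% also occur in Gm26526 or other genes of the GENCODE annotation. Reads from such windows can align to several places, and the deposited counts per gene leave out reads that did. Ube2o had 0% shared windows.

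The CTLH complex, the ligase that works with UBE2H, was followed through 11 subunit and adaptor genes. In FL against KD 8 were called higher and 0 lower, with a median of 0.43, beside 26.3% higher and 31.7% lower and a median of -0.06 over all genes. With library totals only this was 5 higher and 1 lower. The 0 also held by DESeq2 and at an unadjusted edgeR p under 0.05, as did each 0 given for a list below. Ranbp10, a scaffold subunit, was at 111.1, 141.2 and 171.2 CPM in KD and 825.9, 713.4 and 747.6 in FL (2.43 ± 0.14, edgeR adjusted p = 2.62e-08). Wdr26, another scaffold subunit, rose by 1.56 ± 0.18. In FL against delta45 5 were higher and 1 lower, with a median of 0.22, beside 25.8% and 27% of all genes.

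Maea, which holds the RING-type catalytic part, also lay lowest in delta45. It was at 226.8, 217.6 and 235.4 CPM in KD, 124.6, 122.4 and 122.1 in delta45 and 286, 303.1 and 309.1 in FL. Delta45 was below KD (-0.88 ± 0.0869, edgeR adjusted p = 3.93e-06) and FL above it (0.4 ± 0.0863, edgeR adjusted p = 0.00148). Ypel5, another subunit, also lay lower in delta45 (-1.22 ± 0.172) and was called higher in FL against KD (0.43 ± 0.169, edgeR adjusted p = 0.0455). Over the 11 genes, 5 were called higher and 2 lower in delta45 against KD, beside 29.2% and 30.7% of all genes; the 2 were Maea and Ypel5.

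Ube2h has 2 annotated starts in the RefSeq table used here (GRCm38.p6, not the build of the counts), and the 250 bases before each are shown because the gene split the constructs. They were searched on both strands for the GATA motif, GATA with A or T before it and A or G after it, in capitals where found. The window at chr6:30304540-30304789, minus strand, held none, and that at chr6:30243804-30244053, minus strand, held AGATAA 204 bases before the start.
Ube2h, chr6:30304540-30304789: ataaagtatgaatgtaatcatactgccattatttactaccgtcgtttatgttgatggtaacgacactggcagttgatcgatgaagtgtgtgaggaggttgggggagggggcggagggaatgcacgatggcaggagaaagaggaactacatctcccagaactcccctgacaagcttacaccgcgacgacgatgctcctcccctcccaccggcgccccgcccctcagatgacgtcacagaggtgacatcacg
Ube2h, chr6:30243804-30244053: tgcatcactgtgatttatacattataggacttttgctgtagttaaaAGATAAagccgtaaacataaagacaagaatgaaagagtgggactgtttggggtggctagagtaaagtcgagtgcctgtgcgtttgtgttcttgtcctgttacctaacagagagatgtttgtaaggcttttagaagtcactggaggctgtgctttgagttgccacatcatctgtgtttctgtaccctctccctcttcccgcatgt
Of 32851 such windows of all genes 26.5% held a GATA motif, and of the 33 windows of 23 members 2 did (6.06%), in Ube2h and Ube2s. Such a match is a string of letters and not a measured site. The table has no window for Ube2o.

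**Figure D3:**
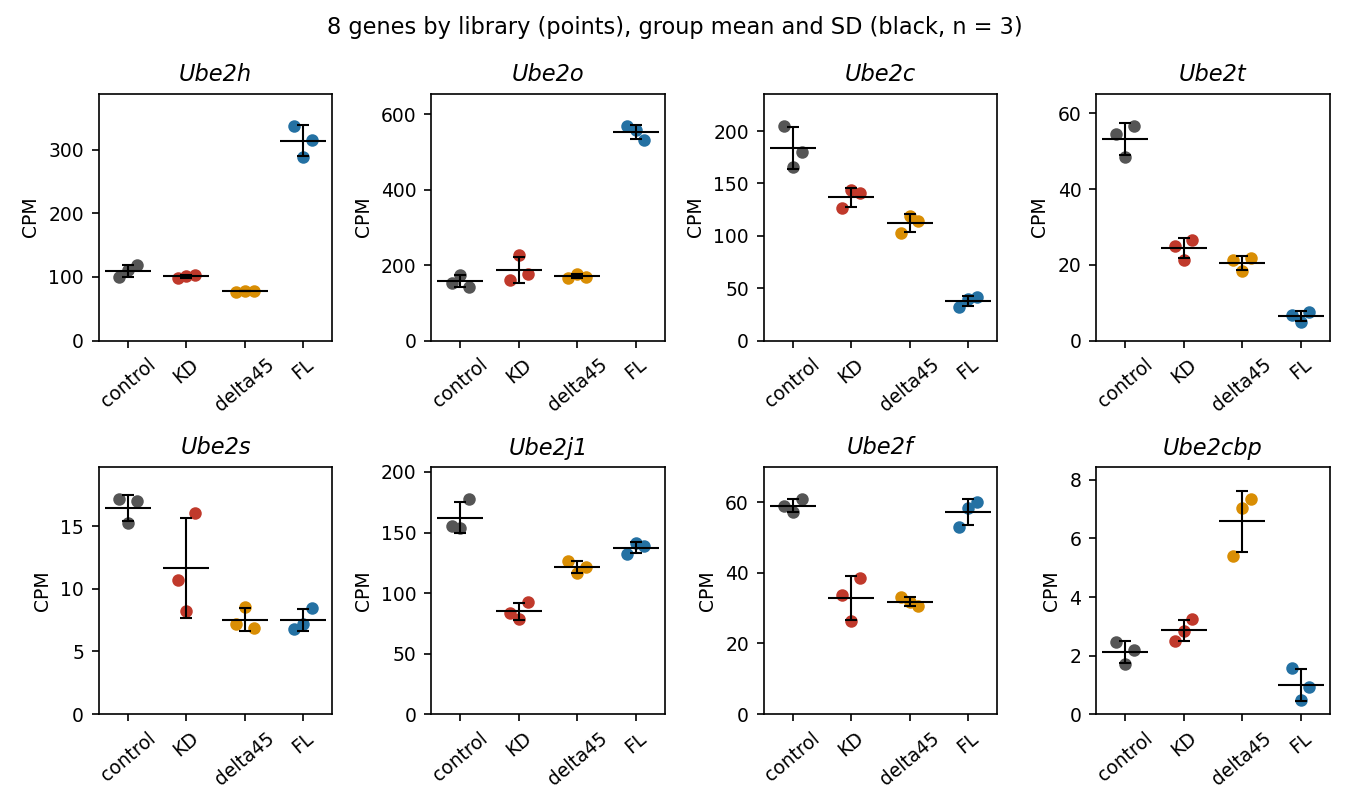
CPM of 8 genes in each library (points, axes from 0), with the mean and SD of the 3 libraries of a group in black. Ube2h and Ube2o are high in FL, Ube2c and Ube2t step down from control to FL, Ube2j1 is lowest in KD, and Ube2cbp has its highest values in delta45.

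Ube2c and Ube2s serve the anaphase-promoting complex (APC/C), the ligase that ends mitosis by destroying cyclins. UBE2C places the first ubiquitins and UBE2S extends them into a chain. Both genes were lower in FL than in control, but they parted between the constructs: Ube2c was lower in FL than in delta45, and Ube2s was not called different between them.

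Ube2c (ENSMUSG00000001403) was at 205.1, 166.1 and 179.8 CPM in control, 126.2, 143.3 and 140.4 in KD, 102.3, 119.2 and 114.1 in delta45, and 32.09, 39.87 and 41.55 in FL. The 4 groups did not overlap and stepped down in that order. The fall was 3.6-fold in FL against KD (-1.85 ± 0.127, edgeR adjusted p = 1.18e-07), 2.95-fold against delta45 (-1.56 ± 0.125) and 4.85-fold against control (-2.28 ± 0.128). KD was below control by a smaller step (-0.43 ± 0.121, edgeR adjusted p = 0.0103), a call lost without control replicate 1 (adjusted p = 0.0533). Delta45 against KD missed the threshold (-0.29 ± 0.121, edgeR adjusted p = 0.0544). Part of the exons of Ube2c, 22.8% of bases, overlaps Tnnc2, and without strand information reads there could not be assigned.

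Ube2s (ENSMUSG00000060860) was at 17.15, 15.25 and 16.98 CPM in control and 10.67, 8.25 and 16.02 in KD. In delta45 it was at 7.171, 8.562 and 6.887 CPM and in FL at 6.772, 7.208 and 8.474. FL and delta45 overlapped throughout (log2 0 ± 0.222, edgeR adjusted p = 0.999). Both fell against control, with a log2 change of -1.13 each (edgeR adjusted p = 0.000647 for FL and 0.00048 for delta45). The calls against KD, -0.63 in each, were lost without KD replicate 3. Without it the change was -0.34 in each (edgeR adjusted p = 0.128 for FL and 0.117 for delta45). Each call was also lost with only the 2 groups in the fit, that of FL without FL replicate 1 or 2, and that of delta45 without delta45 replicate 1 or 3.

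Among 16 genes of the APC/C and its regulators, 3 were called higher and 7 lower in FL against KD, with a median of 0.06, beside 26.3% and 31.7% of all genes. In FL against delta45 4 were higher and 5 lower, with a median of -0.13, near the shares of all genes (25.8% and 27%). The lower count was 9 with library totals only and 3 without KD replicate 2, without any 1 delta45 library, or without FL replicate 2 or 3. Cdc20, the activator used at mitosis, was at 79.27, 101.6 and 96.4 CPM in KD, 95.14, 103.6 and 98.84 in delta45 and 20.63, 23.95 and 25.31 in FL (-1.98 ± 0.131 against KD, edgeR adjusted p = 8.55e-08). Fbxo5, the APC/C inhibitor EMI1, changed by -1.95 ± 0.146 in FL against KD and -2.63 ± 0.148 against delta45. Anapc5, a core subunit, changed by -1.05 ± 0.0987 and -0.65 ± 0.098. The largest falls were thus in the activator and the inhibitor.

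The proliferation genes were also lowest in FL. The summed level of 22 DNA replication and mitosis genes was 6910 to 7438 CPM in delta45, 4735 to 5117 in control, 3865 to 4915 in KD and 1334 to 1459 in FL. In FL against KD and against delta45 0 of the 22 were called higher and 22 lower, with medians of -1.9 and -2.42. Of all genes 26.3% and 25.8% were called higher in these comparisons, and 31.7% and 27% lower. In delta45 against KD 16 were called higher and 0 lower, beside 29.2% and 30.7% of all genes. In delta45 the sum was the highest of the groups, while Ube2c, Ube2s and Ube2t were called lower there than in control. The part of this list in the members' changes was not tested.

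UBE2T is the E2 with which FANCL adds ubiquitin to FANCD2 and FANCI in the repair of DNA crosslinks. Ube2t (ENSMUSG00000026429) had the widest range over the groups among the 30, 8.33-fold between the highest and lowest mean. It was at 54.55, 48.44 and 56.71 CPM in control, 25.03, 21.38 and 26.53 in KD, 21.32, 18.34 and 21.87 in delta45, and 6.876, 4.883 and 7.415 in FL. Control stood above all others, KD and delta45 overlapped, and FL lay below all. The step from control to KD was -1.13 ± 0.148 (2.19-fold, edgeR adjusted p = 4.67e-05), and it was called under every alternative. FL was lower by a further 3.76-fold against KD (-1.91 ± 0.163, edgeR adjusted p = 7.92e-07). Delta45 against KD was not called (-0.25 ± 0.149, edgeR adjusted p = 0.166), and FL was 3.16-fold below delta45 (-1.66 ± 0.162, edgeR adjusted p = 1.97e-06).

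The partners of UBE2T did not share its fall in KD. Fancl was at 13.18, 13.04 and 17.1 CPM in control and 18.82, 17.15 and 23.55 in KD, a rise of 0.45 ± 0.175 (edgeR adjusted p = 0.0463). In FL it was at 7.605, 9.184 and 9.769 CPM, below KD (-1.16 ± 0.18, edgeR adjusted p = 0.000131). Fancd2, a substrate, was not called in KD against control (0.09 ± 0.188, edgeR adjusted p = 0.713), rose in delta45 against KD (1.02 ± 0.186) and fell in FL against KD (-2.13 ± 0.21). Fanci, its partner, changed by 0.75 ± 0.211 and -2.11 ± 0.24 in the same comparisons. So in delta45 Fancd2 and Fanci rose while Ube2t was not called.

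The 250 bases before the starts of Ube2c, Ube2t and Ube2s are shown because the first 2 genes fell in FL against both other knockdown groups and Ube2s did not fall against delta45. Capitals mark the CHR element of cell cycle promoters (TTTGAA), the CCAAT box and the GATA motif, on either strand, overlaps included.
Ube2c, chr2:164769679-164769928, plus strand: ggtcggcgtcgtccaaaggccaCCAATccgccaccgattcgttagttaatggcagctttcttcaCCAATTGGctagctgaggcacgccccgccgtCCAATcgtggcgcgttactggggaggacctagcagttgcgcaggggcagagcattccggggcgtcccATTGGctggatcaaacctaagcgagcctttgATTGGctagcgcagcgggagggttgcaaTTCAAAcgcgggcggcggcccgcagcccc
Ube2t, chr1:134962315-134962564, plus strand: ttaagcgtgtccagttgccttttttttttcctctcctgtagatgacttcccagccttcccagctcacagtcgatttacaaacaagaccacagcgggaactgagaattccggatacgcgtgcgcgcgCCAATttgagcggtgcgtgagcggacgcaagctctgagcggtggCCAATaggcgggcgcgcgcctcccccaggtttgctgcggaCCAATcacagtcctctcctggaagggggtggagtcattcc
Ube2s, chr7:4812341-4812590, minus strand: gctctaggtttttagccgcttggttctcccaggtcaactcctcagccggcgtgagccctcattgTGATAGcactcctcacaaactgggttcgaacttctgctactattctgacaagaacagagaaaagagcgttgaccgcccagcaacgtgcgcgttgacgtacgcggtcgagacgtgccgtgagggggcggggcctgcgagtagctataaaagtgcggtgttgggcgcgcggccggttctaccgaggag
The Ube2c window held 6 CCAAT boxes, read on either strand, and 1 CHR 29 bases before the start. The Ube2t window held 3 CCAAT boxes, at 124, 80 and 40 bases before the start, and no CHR. The Ube2s window held neither, and 1 GATA motif, TGATAG, 186 bases before the start. A CHR was found in 16% of the 32851 windows and 9.09% of the 33 members' windows (Ube2c, Ube2f and Ube2z). A CCAAT box was found in 33.8% and 18.2% (Ube2c, Ube2t, Ube2d3, Ube2e1, Ube2f and Ube2l3). The sequences are RefSeq's, on GRCm38.p6.

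UBE2A and UBE2B are near-twins that ubiquitinate histone H2B with RNF20 and RNF40 and the clamp protein PCNA with RAD18. Ube2b was at 87.72 to 100 CPM in delta45, 66.54 to 99.47 in KD and 125 to 156.1 in FL. FL was above KD (0.7 ± 0.169, edgeR adjusted p = 0.00319) and above delta45 (0.62 ± 0.168, edgeR adjusted p = 0.00725), the latter not called with library totals only. Ube2a was called only against control, 0.69 ± 0.15 in FL and 0.64 ± 0.15 in delta45. In FL against KD its change was 0.34 ± 0.15 (edgeR adjusted p = 0.0676). It was called higher there under 8 of 19 alternatives, a replicate block, RLE scaling and DESeq2 among them. Neither transcript shared any 50-base window with another gene, so the pair could be told apart.

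Rad18, the E3 of this pair, fell in FL against KD. It was at 24.89, 20.08 and 21.63 CPM in KD, 42.09, 41.21 and 37.01 in delta45 and 11.04, 12.09 and 12.06 in FL. The change was 0.85 ± 0.143 in delta45 against KD and -0.92 ± 0.15 in FL against KD (edgeR adjusted p = 0.000257 and 0.00019). Over 10 E3s and targets of damage tolerance and crosslink repair, 7 were higher and 0 lower in delta45 against KD (median 0.79), beside 29.2% and 30.7% of all genes. In FL against delta45 1 was higher and 6 lower (median -0.7), beside 25.8% and 27%. For FL against KD it was 3 higher and 4 lower, beside 26.3% and 31.7%, with 5 higher without KD replicate 1 and 1 higher with library totals only.

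UBE2N builds chains used in signalling and DNA damage tolerance, and it needs UBE2V1 or UBE2V2, E2 relatives that lack the catalytic cysteine. Ube2n was steady, at 13.6 to 18.13 CPM over the 12 libraries, and was not called in any of the 6 comparisons (lowest edgeR adjusted p = 0.0866). With library totals only it was called lower in FL against KD, delta45 and control. Its partners were scarce. Ube2v1 was at 0.9063, 1.845 and 2.189 CPM in KD and 6.042, 4.883 and 5.179 in FL (1.73 ± 0.328, edgeR adjusted p = 0.000601), with 472 reads in all. It shared 91.2% of its windows with Gm20431 and other genes, so its level is that of few unique bases. Ube2v2 was at 4.044, 1.737 and 3.853 CPM in KD and 10.64, 7.859 and 6.358 in delta45 (1.35 ± 0.468, edgeR adjusted p = 0.0242), a call lost without KD replicate 2 or delta45 replicate 1. Control replicate 3 held 10.34 CPM of it, against 3.536 and 2.808 in the other controls.

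**Figure D4:**
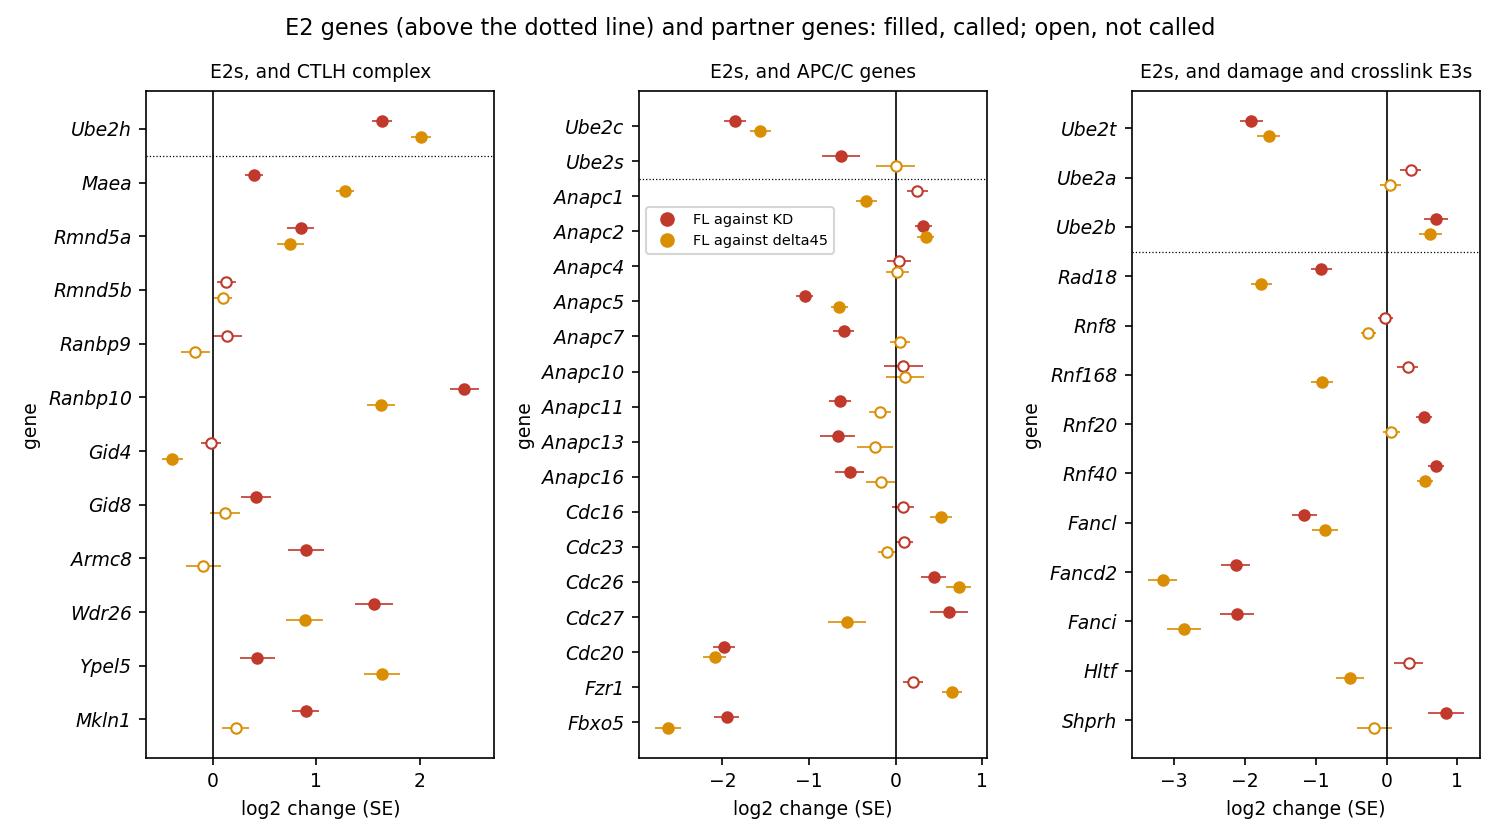
Log2 changes with SE in FL against KD (red) and FL against delta45 (orange) of E2 genes, above the dotted line, and of the ligase genes they work with; filled points were called. CTLH genes lie mostly to the right, Cdc20 (-1.98) and Fbxo5 (-1.95 against KD) stand apart within the APC/C, and Fancd2 and Fanci lie furthest left among the damage E3s and targets.

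SUMO, another relative of ubiquitin, has ligases and proteases of its own. Of 11 SUMO ligase and protease genes 8 were called higher and 1 lower in FL against KD, with a median of 0.55, beside 26.3% and 31.7% of all genes; with library totals only these were 3 and 2. In delta45 against KD 5 were higher and 1 lower, beside 29.2% and 30.7%, and 8 were higher without KD replicate 1. Senp6, a protease that trims SUMO chains, rose by 1.14 ± 0.123 in FL and 0.68 ± 0.122 in delta45. Senp1, another SUMO protease, rose in delta45 against KD (0.72 ± 0.126) and was lower in FL than in delta45 (-1.05 ± 0.127). Sumo3, a modifier gene, was lower in FL than in KD (-0.77 ± 0.116).

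UBE2F and UBE2M carry NEDD8 to the cullins, the scaffolds of the largest E3 family, UBE2F to CUL5 and UBE2M to the others. Ube2f (ENSMUSG00000034343) was at 58.83, 57.27 and 60.88 CPM in control, 33.67, 26.27 and 38.61 in KD, 33.04, 31.82 and 30.58 in delta45, and 53.13, 58.48 and 60.14 in FL. KD and delta45 overlapped at the low level and control and FL at the high one. KD lay below control (-0.84 ± 0.129, 1.79-fold, edgeR adjusted p = 0.00016) and FL stood above KD by 0.8 ± 0.129 (edgeR adjusted p = 0.00018). Delta45 against KD gave -0.05 ± 0.129 and FL against control -0.04 ± 0.127, neither called (edgeR adjusted p = 0.762 and 0.789). The fall in KD and the rise in FL against KD and delta45 were called under every alternative except, for FL against KD, the test against a 1.5-fold change.

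Ube2m was at 106.2 to 114.4 CPM in delta45, 131.8 to 159.4 in KD and 150.7 to 170.5 in FL. It was lower in delta45 than in KD (-0.39 ± 0.1, edgeR adjusted p = 0.00447) and than in control (-0.52 ± 0.101). FL lay above delta45 by 0.54 ± 0.101 (edgeR adjusted p = 0.000511). Of 11 cullin and neddylation genes 9 were higher and 0 lower in FL against KD (median 0.64), beside 26.3% and 31.7% of all genes. In delta45 against KD 7 were higher and 0 lower (median 0.56), beside 29.2% and 30.7%, with 4 higher without delta45 replicate 1. Cul5, the target of UBE2F, rose by 1.11 ± 0.164 in FL and 1.23 ± 0.164 in delta45 against KD. Nedd8 itself was lower in delta45 than in KD (-1.02 ± 0.149) and higher in FL than in delta45 (0.77 ± 0.148).

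The E2s that work with cullin ligases or at the endoplasmic reticulum (ER) included several of the changes in KD. UBE2J1 sits in the ER membrane and ubiquitinates misfolded proteins as they are drawn out. Ube2j1 was at 155.7, 154 and 177.5 CPM in control, 83.1, 78.92 and 92.72 in KD, 126.5, 116.9 and 121.2 in delta45, and 132.5, 141.4 and 138.6 in FL. The 4 groups did not overlap. KD was 1.91-fold below control (-0.94 ± 0.0984, edgeR adjusted p = 8.32e-06), and both constructs stood above KD, FL by 0.69 ± 0.0982 and delta45 by 0.52 ± 0.0979. FL against delta45 was not called (0.18 ± 0.0973, edgeR adjusted p = 0.142).

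UBE2G2 serves ligases of the ER. Ube2g2 was at 103.6, 104.4 and 86.51 CPM in control, 59.4, 60.79 and 67.51 in KD, 52.21, 54.31 and 53.13 in delta45 and 54.07, 57.43 and 54.02 in FL. All 9 libraries of knockdown cells lay below control, with changes of -0.65 ± 0.103 in KD, -0.88 ± 0.103 in delta45 and -0.83 ± 0.104 in FL (edgeR adjusted p = 0.000211, 8.43e-06 and 1.78e-05). Neither construct was called different from KD (edgeR adjusted p = 0.15 for FL and 0.0661 for delta45). Of 8 ER-associated ligase genes 4 were higher and 0 lower in FL against KD, with a median of 0.33, beside 26.3% and 31.7% of all genes. March6, an ER ligase, rose by 2.2 ± 0.193.

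UBE2R2 is a close relative of CDC34, the E2 of SCF ligases. Ube2r2 was at 181.2, 171.3 and 194.8 CPM in control, 112.7, 135 and 170 in KD, 89.09, 86.64 and 90.67 in delta45, and 168.1, 155.4 and 164.4 in FL. Delta45 was the lowest group without overlap, 1.57-fold below KD (-0.65 ± 0.129, edgeR adjusted p = 0.000896) and 1.83-fold below FL. The call in KD against control (-0.39 ± 0.129, edgeR adjusted p = 0.0227) was lost without control replicate 1 or 3 (-0.35 and adjusted p = 0.0627 without the latter), without KD replicate 1 or 2, and with only the 2 groups in the fit, where the adjusted p reached 0.103. Cdc34, left out by its name, was likewise lower in delta45 than in KD (-0.72 ± 0.19, edgeR adjusted p = 0.00571) and higher in FL than in delta45 (0.56 ± 0.19, edgeR adjusted p = 0.0238).

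Ube2j2, the other membrane-bound ER enzyme, was at 27.89 to 34.13 CPM in delta45, 44.27 to 64.18 in KD and 38.55 to 52.2 in FL. It was lower in delta45 than in KD (-0.85 ± 0.177, edgeR adjusted p = 0.00127). FL stood above delta45 by 0.49 ± 0.178, a call lost with library totals only and without delta45 replicate 1 or 2 or FL replicate 2 or 3 (adjusted p up to 0.299). Ube2g1, which extends chains for cullin ligases, was at 98.13 to 108.5 CPM in KD and 134.9 to 148.7 in FL (0.48 ± 0.164, edgeR adjusted p = 0.0238), a call lost with library totals only, without KD replicate 3 (0.46, adjusted p = 0.0502) and without FL replicate 2 or 3.

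The UBE2D and UBE2E enzymes are general E2s that load many RING ligases, and UBE2W adds single ubiquitins to protein N termini. In this group control replicate 3 decided much. Ube2d3 was at 130.4, 131.6 and 270.5 CPM in control, 129.8, 87.49 and 154.1 in KD, 206.7, 175.8 and 184.2 in delta45, and 218, 217.3 and 231.9 in FL. It was called higher in FL against KD (0.84 ± 0.257, edgeR adjusted p = 0.0128), but not with library totals only. In delta45 against KD the change of 0.61 ± 0.256 lay at the threshold (edgeR adjusted p = 0.0548), and it was called higher under 9 of 19 alternatives, the replicate block among them. FL against control was not called (0.32 ± 0.255, edgeR adjusted p = 0.29), and without control replicate 3 it was, at 0.82 and an adjusted p of 0.00271.

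Ube2d2a was at 10.07, 10.03 and 24.57 CPM in control, 24.4, 13.24 and 25.48 in KD, 31.35, 31.05 and 33.15 in delta45, and 22.82, 20.23 and 26.48 in FL. Delta45 stood above all other libraries and was called against control (1.07 ± 0.313, edgeR adjusted p = 0.00899). Without control replicate 3 that change was 1.68. Against KD it was 0.59 ± 0.308 (edgeR adjusted p = 0.113), called with a replicate block and without control replicate 3. Ube2d2a and Ube2d3 shared 16.2% and 16.5% of their windows with other genes. Ube2d1, at 11.13 to 29.86 CPM over all libraries, was called higher in KD (0.66 ± 0.205) and in delta45 (0.77 ± 0.203) against control; the call in KD was lost without control replicate 2 or KD replicate 3 (0.52 and adjusted p = 0.0592 without the latter) and with only the 2 groups in the fit.

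Ube2e3 (ENSMUSG00000027011) was at 94.73, 86.56 and 129.7 CPM in control, 143.5, 124.2 and 144.6 in KD, 138.5, 138.1 and 137.6 in delta45, and 176.7, 181.6 and 197.6 in FL. FL stood above all other libraries. It was 1.78-fold above control (0.84 ± 0.136, edgeR adjusted p = 0.000165), a call kept under every alternative. The steps of 0.43 ± 0.135 against KD and 0.42 ± 0.135 against delta45 were lost without FL replicate 3 and with library totals only. The step of 0.4 ± 0.136 in KD against control was lost without control replicate 1 or 2 or KD replicate 3 (0.37 and adjusted p = 0.0533 without the latter) and with only the 2 groups in the fit.

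Ube2e1 split the constructs, at 30.23 to 32.77 CPM in delta45, 41.9 to 51.31 in KD and 42.71 to 51.96 in FL. Delta45 was below KD (-0.6 ± 0.127, edgeR adjusted p = 0.00143) and FL above delta45 (0.63 ± 0.128, edgeR adjusted p = 0.00101). Its windows were shared with Nkiras1 and other genes at 59%. Ube2w, at 17.57 to 44.1 CPM, was not called in any of the 6 comparisons (lowest edgeR adjusted p = 0.0592), but without control replicate 3 it was called higher than control in KD, FL and delta45 (0.89, 1.11 and 1.06). FL and delta45 against control were also called with a replicate block and by DESeq2, 9 and 7 of 19 alternatives in all. Ube2e2 was left out with 6 reads.

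Of the other E2s Ube2l3 was called nowhere, and Ube2z, Ube2k, Ube2q1 and Ube2q2 in 2 or more comparisons each. UBE2L3 serves HECT and RBR ligases such as parkin; Ube2l3 was at 57.47 to 88.8 CPM over the 12 libraries, changed by at most 0.1 between groups in size, and was not called in any comparison or alternative. Of its windows 58.9% were shared with Ydjc and other genes, so its level rests on the rest. UBE2Z takes ubiquitin from the E1 UBA6; Ube2z was higher in KD (0.42 ± 0.108, edgeR adjusted p = 0.0056) and in FL (0.45 ± 0.108) than in control, while Uba6 was called higher only in delta45, by 0.99 ± 0.289 against KD. UBE2K builds chains that target proteins to the proteasome; Ube2k was at 68.9, 70.31 and 89.62 CPM in control and 104.2, 87.49 and 121.4 in KD (0.45 ± 0.131, edgeR adjusted p = 0.012), a call lost without control replicate 1 or 2 and with only the 2 groups in the fit.

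The HECT and RBR ligases, which UBE2L3 can load, were followed through 12 genes. Of these 7 were called higher and 1 lower in FL against KD (median 0.42), beside 26.3% and 31.7% of all genes, and 6 higher and 1 lower in delta45 against KD (median 0.3), beside 29.2% and 30.7%. Nedd4, a HECT ligase of membrane proteins, was at 918.2, 756.5 and 599.4 CPM in KD and 2049, 1762 and 1793 in FL (1.3 ± 0.147, edgeR adjusted p = 9.15e-06). Rnf31, an RBR ligase that builds linear chains, was the gene called lower in each (-0.77 ± 0.124 in FL and -0.89 ± 0.123 in delta45). Among 7 E2-type genes with other names, 2 were called higher and 2 lower in delta45 against KD, near the 29.2% and 30.7% of all genes. Birc6, a giant E2 and E3 hybrid that restrains cell death, was among the former (0.99 ± 0.243, edgeR adjusted p = 0.00355), at 456.2, 394.4 and 373.9 CPM in delta45 against 262.8, 238.8 and 114.4 in KD. Cdc34, given above, was among the latter.

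Ube2q2 and Ube2q1 belong to a family with a long N-terminal extension. Ube2q2 was at 26.58, 24.97 and 46.07 CPM in control, 29.7, 24.1 and 30.47 in KD, 55.77, 50.61 and 59.72 in delta45, and 47.19, 51.73 and 48.96 in FL. Both construct groups lay above all control and KD libraries. Delta45 was 1.97-fold above KD (0.98 ± 0.196, edgeR adjusted p = 0.000956) and FL 1.75-fold (0.81 ± 0.198, edgeR adjusted p = 0.00351). Ube2q1 was at 227.3, 246.3 and 242.8 CPM in control, 224.8, 304.2 and 363.9 in KD, 230.2, 234.8 and 238.9 in delta45, and 324.8, 308.7 and 349.2 in FL. FL was above delta45 (0.48 ± 0.141, edgeR adjusted p = 0.0113), though not with library totals only. In delta45 against KD it gave -0.34 ± 0.141 (edgeR adjusted p = 0.0503). It was called lower there under 5 of 19 alternatives: a replicate block, RLE scaling, library totals only, DESeq2 and without KD replicate 1.

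Ube2cbp (ENSMUSG00000032415), the ligase gene named for binding UBE2C, had the largest change between the constructs among the 30. It was at 2.465, 1.705 and 2.174 CPM in control, 2.51, 2.822 and 3.24 in KD, 5.39, 7.028 and 7.341 in delta45, and 1.563, 0.465 and 0.9416 in FL. The groups did not overlap, delta45 being highest and FL lowest. Delta45 was above KD (1.2 ± 0.278, edgeR adjusted p = 0.00244) and FL below it (-1.51 ± 0.338, edgeR adjusted p = 0.00197). FL was 6.54-fold below delta45 (-2.71 ± 0.318, edgeR adjusted p = 1.06e-05). The gene had only 533 reads in all, and 4 in FL replicate 2.

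Upstream of the E2s, Uba1, the main ubiquitin E1, was at 977.5, 967.2 and 936.3 CPM in control, 520.7, 500.9 and 526.6 in KD, 695.7, 726.1 and 742.1 in delta45, and 784.1, 786.5 and 820.2 in FL. It fell 1.86-fold in KD (-0.9 ± 0.0853, edgeR adjusted p = 3.83e-06) and stood above KD by 0.63 ± 0.085 in FL and 0.48 ± 0.0848 in delta45. Ube2j1 had the same order of groups. Uba3, a part of the NEDD8 E1, also fell in KD (-0.56 ± 0.136) and rose with FL (0.8 ± 0.137) and delta45 (0.67 ± 0.136). Of 8 E1 genes 2 were lower and 0 higher in KD against control (median 0.1), beside 24.1% and 25.6% of all genes, and 5 higher and 0 lower in delta45 against KD (median 0.48), beside 29.2% and 30.7%. Of 8 genes of ubiquitin and its relatives, 4 were lower and 1 higher in delta45 against KD (median -0.5), beside 30.7% and 29.2%. The gene called higher was Rps27a (0.49 ± 0.191, edgeR adjusted p = 0.0397), a call lost without KD replicate 1 or 3 and without any 1 FL library, among others.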

How the data were processed

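RNA-seq counts per gene were deposited for 12 libraries. The submitters' processing notes name TopHat 1.4.1, cutadapt 1.1, DESeq 1.10.1, HTSeq 0.5.3p9 and the mm9 build, with no settings. Per the labels' protocols the library kit was TruSeq RNA, and no strand-marking step is named. The deposited counts are whole reads per Ensembl gene, not normalized. The 5 closing rows that name no gene were kept out of all fits. Relative to gene reads plus these rows, multiply aligned reads were 38.69 to 39.22% in delta45, 42.26 to 47.12% in FL, 42.69 to 48.51% in KD and 50.6 to 53.31% in control. Reads outside genes made up 2.117 to 6.133% and ambiguous reads 1.33 to 1.809%. Of 37991 gene IDs, 32919 were matched to symbols.

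The main test was edgeR 4.0.16 (R 4.3.3) with TMM scaling, filterByExpr, all 12 libraries and the quasi-likelihood test on 4 group means, with Benjamini-Hochberg adjustment over 12837 genes. TMM factors were 0.8705 to 0.88 in FL and 1.002 to 1.114 elsewhere. Counts of members and of list genes under the main test are given beside the share of all genes called, and counts under alternatives are not. Alternatives were RLE scaling, library totals only, no filter on low counts, a filter of 1 CPM in 3 libraries, DESeq2 1.42.0, only the 2 groups compared, a replicate block, a test against a 1.5-fold change, each library left out, and a minimum of 10 or 100 reads for membership. The fit was tested on simulated counts. Windows of 50 bases of GENCODE M21 coding transcripts were compared between genes, and promoter windows came from RefSeq.

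The members, gene lists and alternatives were chosen with earlier results of these data known. Every member is counted, and all but 1, which is not reported here, may be named or drawn. Of each list of partner genes, up to 4 with the lowest adjusted p were eligible to be named, besides the direct partners Maea, Uba1, Uba6, Cdc34, Cdc20, Fancl and Rad18; Ube2l6 was named after its values were seen. CPM in the text is the scaled value edgeR gives, counts per the size of the TMM-scaled library.

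The titles number the replicates, and no source says what a number shares. Over 18 same-numbered pairs of libraries, the correlation of deviations from the group means was -0.255 to 0.333. It was over 0.1 in every pair for KD with FL (0.29, 0.121 and 0.271) and for KD with delta45 (0.294, 0.174 and 0.102). Where the replicate block changed a member's call in those comparisons, the block is named beside that gene, without its values. No 2 libraries agreed within counting noise (smallest chi-square per degree of freedom 2.191).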

Additional observations from a re-analysis of the deposited data

Results flagged for a closer look

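In 2 genes FL and delta45 lay on opposite sides of KD, each called by edgeR. Genes were listed here only where FL against delta45 was called too, so its p-values below are no further test. Ldb1 mRNA also differed between these groups, at 3210 to 3696 CPM in FL and 750.4 to 781.2 in delta45. The part of Ldb1 level or of the separate lines was not tested. For Ube2h the change in FL against delta45 was 2.01 ± 0.098 on the log2 scale (edgeR adjusted p = 4.27e-09), with all 3 FL libraries above and all 3 delta45 libraries below the 3 KD libraries. For Ube2cbp it was -2.71 ± 0.318 (edgeR adjusted p = 1.06e-05), with all 3 FL libraries below and all 3 delta45 libraries above the 3 KD libraries. The comparisons of FL and of delta45 with KD share the KD libraries.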

How the results depend on the processing

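Of 180 member comparisons 88 were called, and 60 of these calls were kept under every alternative but the test against a 1.5-fold change; no called change reversed. Of the 92 not called, 44 remained so. Against a 1.5-fold change, which asks for a larger effect, the counts were 0 higher and 3 lower for KD against control. They were 4 higher and 3 lower for FL against KD, and 3 and 0 for delta45 against KD. FL against delta45 had 4 higher and 3 lower, FL against control 4 and 4, and delta45 against control 2 and 5. The shares of all genes called under an alternative are not given, so these counts cannot be read against them. With library totals only, FL had 8 higher and 10 lower against KD, 7 and 8 against delta45 and 6 and 8 against control. Fitting only the 2 groups left 1 higher in KD against control and gave 7 lower in FL against delta45. That last count was 6 with a replicate block and 5 by DESeq2. The block gave no other count over 1.5 times from the main one. For these shifts other than under the 1.5-fold test the cause was not tested.

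Leaving out each library in turn gave 1 to 9 higher and 4 to 9 lower for KD against control, 9 to 13 and 3 to 5 for FL against KD, 4 to 9 and 5 to 9 for delta45 against KD, 9 to 13 and 3 to 5 for FL against delta45, 8 to 16 and 4 to 6 for FL against control, and 6 to 12 and 9 to 10 for delta45 against control. A minimum of 10 or 100 reads gave the same 30 members. Depth limits the scarce genes: Ube2v1 had 472 reads in all and Ube2cbp 533.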
